A study of Drosophila melanogaster with 18 samples.

Results

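The genes described here are 72 of the 17753 in the table that copper raised in parental Drosophila DL1 cells and that stood higher again when IntS6 was overexpressed. They were found from the group means of CPM (counts scaled to 1 M counts per library), with 0.5 CPM added before taking log2 ratios. A gene entered when copper-treated over untreated parental cells reached a log2 ratio of 0.8, and when the copper-treated IntS6 line over copper-treated parental cells and over the copper-treated IntS12 line each reached 0.6. The 82 genes past all of these limits included 10 whose names were set aside (metallothionein, heat shock and glutathione S-transferase families, noncoding RNAs and a short list of single genes). The genes were chosen by these measured values, so every ratio among those 4 groups is a description here and carries no test. Ratios given below as "times" a level are of means with 0.5 CPM added, which understates the change of low genes.

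Integrator is a multi-subunit complex that binds RNA polymerase II soon after initiation, cleaves nascent RNA and can end transcription early at protein-coding genes. IntS6 belongs to the module that brings protein phosphatase 2A to the complex, and IntS12 is a small PHD-finger subunit. Copper ions activate the transcription factor MTF-1, which turns on metallothionein genes such as MtnA, and at high doses copper also sets off oxidative and protein-folding stress programmes.

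Ribosomal RNA-depleted total RNA was sequenced from 6 groups of 3 libraries, lettered A, B and C. With copper they were the IntS6 line, the IntS12 line and parental DL1 cells, and the same kinds of cell were grown without it. Each line is a puromycin-selected DL1 population with a stably kept, FLAG-tagged transgene behind the MtnA promoter, and copper sulfate at 500 µM was present for the last 24 h of 3 d of growth. The labels give IntS6 or IntS12 overexpression as the genotype of the copper-treated lines and WT for all parental cells and for both untreated lines. Copper was thus both the inducer of the transgene and a treatment of its own, and parental cells carried neither a transgene nor, as far as the labels say, puromycin selection. The series' design text calls the libraries of a group biological replicates, but separate cultures are not stated. The p-values below therefore speak of the spread among the given libraries, part of which may be technical.

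Library totals ran from 13217764 to 18214756 counts, with 3.69 to 4.94 M counts per library not assigned to rRNA genes. The transgenes read as labelled. IntS12 averaged 93.6 ± 4.51 CPM in the IntS12 line with copper and 8.47 ± 1.12 CPM without (SD, n = 3 each). IntS6 averaged 2412 ± 227 CPM in the IntS6 line with copper, 40.9 ± 3.47 CPM in the IntS12 line with copper and 35.8 ± 1.52 CPM in parental cells with copper (SD, n = 3 each). Without copper IntS6 already stood at 71.3 ± 2.89 CPM in its line, against 27.5 ± 1.17 CPM in parental cells (SD, n = 3 each). Of 10 plasmatocyte markers 8 exceeded 1 CPM on average (srp, ush, Pxn, Ppn, vkg, Col4a1, eater and crq), while the crystal cell, glia, muscle and fat body lists summed to at most 1.01, 0.872, 1.59 and 0.128 CPM in any library. The plasmatocyte sum was 391 to 536 CPM in the IntS6 line with copper, 336 to 419 CPM in the IntS12 line with copper and 323 to 393 CPM in parental cells with copper. Without copper it was 509 to 587 CPM in the IntS6 line, 483 to 599.9 CPM in the IntS12 line and 434 to 560.1 CPM in parental cells. Its part in the results was not tested. The neuron list summed to 14.7 to 23.1 CPM, with elav as its only member above 1 CPM, and the lamellocyte list to 25.0 to 37.8 CPM, from PPO3 and mthl4. In bulk RNA, fewer cells of a type and less RNA per cell cannot be told apart.

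Summed over the 72 genes, the level was 1333, 1310 and 1225 CPM in libraries A, B and C of the IntS6 line with copper. It was 694, 730 and 779 CPM in the IntS12 line with copper and 627, 796 and 526 CPM in parental cells with copper. The 3 IntS6 libraries lay above the other 6 copper libraries, and the remaining groups with copper overlapped each other. Without copper the sums were 342, 240.5 and 257 CPM in the IntS6 line, 319, 213 and 258 CPM in the IntS12 line and 287, 243 and 197 CPM in parental cells, and these ranges overlapped. MtnA, the metallothionein gene whose promoter drives the transgenes and which is not one of the 72, had 531, 619 and 526 CPM in the IntS6 line with copper, 462, 319 and 392 CPM in the IntS12 line with copper and 289, 406 and 250.3 CPM in parental cells with copper. MtnA too was highest in the IntS6 line. Among parental copper libraries both MtnA and the sum were highest in B and lowest in C, but in the IntS12 line with copper MtnA was highest in A, where the sum was lowest, and in the IntS6 line with copper MtnA peaked in B and the sum in A; the part of the copper response in the difference between kinds of cell was not tested.

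**Figure D1:**
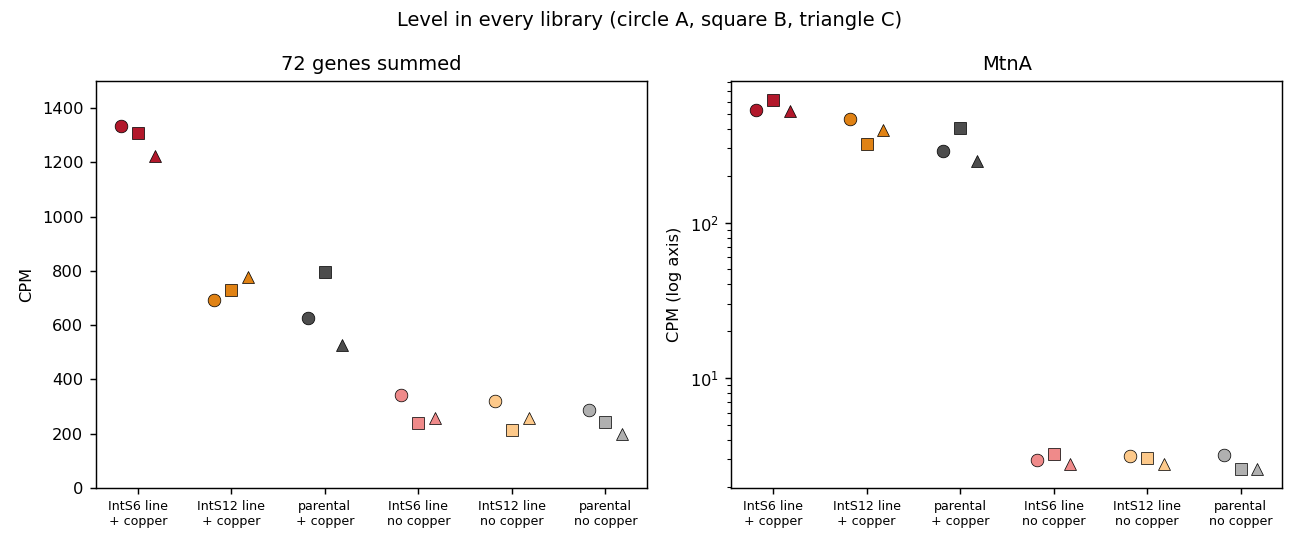
Level in CPM of the 72 genes summed (left, linear axis from 0) and of MtnA (right, log axis) in each of 18 libraries, by group, with circles, squares and triangles for libraries A, B and C. The IntS6 copper libraries reach 1225 to 1333 CPM summed, above the 694 to 779 CPM of the IntS12 line with copper and the 526 to 796 CPM of parental cells with copper.

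The levels of single genes spanned a wide range. In the IntS6 line with copper they averaged from 189 CPM for Ldh to 1.82 CPM for CG44286, with a median of 7.63 CPM. There 28 genes exceeded 10 CPM and 27 stayed under 5 CPM, and Ldh, mfas and Mmp1 together held 37.0% of the sum. Per kilobase of exon the order of levels began with Ldh at 97.3, Thor at 52.7, mfas at 48.0, Mmp1 at 24.6 and Cyp6a20 at 15.1 CPM per kb. The median coefficient of variation between libraries of a group was 16.3% in the IntS6 line with copper, 19.7% in the IntS12 line with copper and 28.4% in parental cells with copper.

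**Figure D2:**
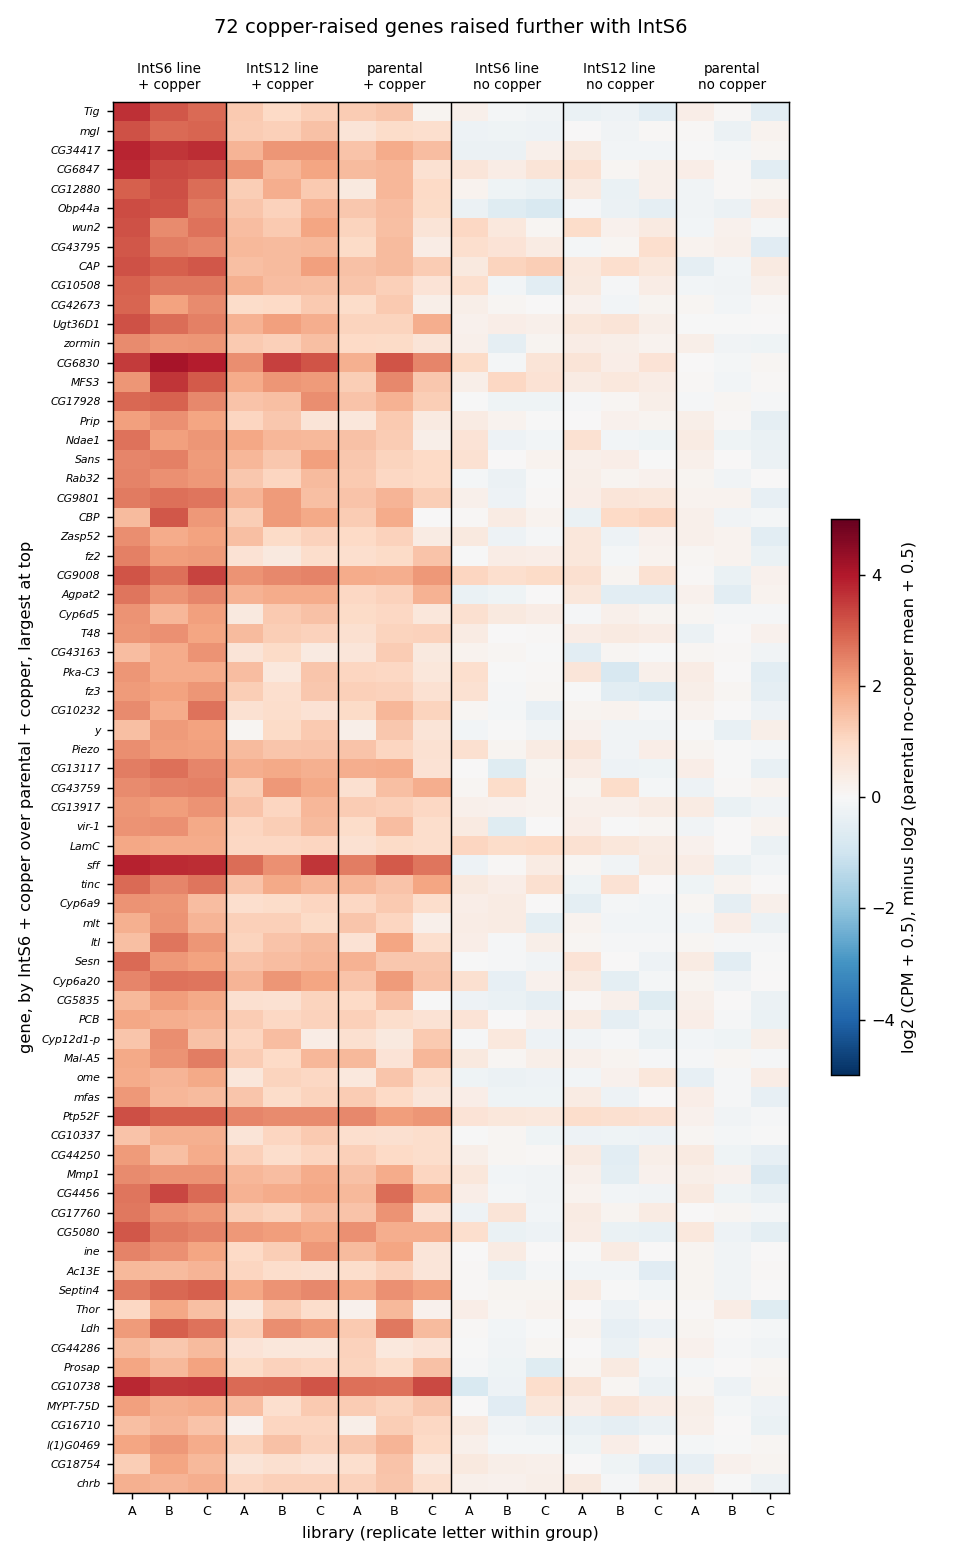
Heat map of the 72 genes (rows, largest ratio of IntS6 over parental cells, both with copper, at the top) in 18 libraries (columns, by group), coloured by log2 of CPM plus 0.5 minus the same for the mean of untreated parental cells. The 3 leftmost columns, the IntS6 line with copper, are the most intensely red, and the 9 untreated columns on the right lie near 0.

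Metabolic genes and genes that restrain growth signalling formed 1 group by role; the roles were assigned after the values were known. The 7 members were Ldh, PCB, Thor, Sesn, chrb, Agpat2 and Mal-A5, and they summed to 336 CPM on average in the IntS6 line with copper, 207 CPM in the IntS12 line with copper and 199 CPM in parental cells with copper. Without Ldh the sum in the IntS6 line with copper was 147 CPM. Ldh, lactate dehydrogenase, which regenerates NAD+ in glycolysis (chromosome 3L of BDGP6.54, 6259105 to 6262694, minus strand), had 132, 236 and 199 CPM in the IntS6 line with copper, 67.8, 148 and 131 CPM in the IntS12 line with copper and 73.2, 185 and 90.3 CPM in parental cells with copper. Library A was the lowest and B the highest in each of these groups, so the groups overlapped although the IntS6 library was 1.80, 1.28 and 2.21 times its parental counterpart of the same letter. Without copper Ldh stood at 30.8, 26.7 and 28.7 CPM in the IntS6 line, 33.1, 22.1 and 24.8 CPM in the IntS12 line and 32.2, 29.1 and 27.2 CPM in parental cells, below every copper library.

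Thor, the 4E-BP that blocks cap-dependent translation when TOR activity is low, shared with Ldh its highest copper library, B. It had 28.0, 52.6 and 38.6 CPM in the IntS6 line with copper, 19.3, 32.6 and 25.4 CPM in the IntS12 line with copper and 15.7, 41.9 and 15.5 CPM in parental cells with copper, and these groups overlapped. Without copper it had 17.1, 14.4 and 15.2 CPM in the IntS6 line, 13.7, 11.2 and 14.1 CPM in the IntS12 line and 13.9, 17.6 and 8.61 CPM in parental cells. Its parental copper and no-copper libraries overlapped as well. Sesn, the sestrin that holds TORC1 in check, averaged 1.88 times the parental level with copper, but 65.1% of its exon bases overlap CG46429 on the same strand, so reads of these genes cannot be told apart. The REDD1 relative chrb, another inhibitor of TORC1, sat just inside the limit, with 17.2, 16.3 and 17.9 CPM in the IntS6 line with copper, 10.5, 11.3 and 11.2 CPM in the IntS12 line with copper and 10.9, 13.1 and 8.81 CPM in parental cells with copper. The IntS6 copper libraries of chrb were above all of the others. PCB, pyruvate carboxylase, which feeds the citric acid cycle, was 1.85 times its parental copper level in the IntS6 line with copper.

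Of 4 genes of the extracellular matrix, its turnover and receptor-mediated uptake, Tig and mgl had the largest IntS6-to-parental ratios of the 72, and mfas and Mmp1 lay at 1.81 and 1.72 times. Tig, the integrin ligand tiggrin (chromosome 2L, 6415179 to 6423310, minus strand), had 15.0, 10.2 and 8.38 CPM in the IntS6 line with copper, 2.59, 1.97 and 2.34 CPM in the IntS12 line with copper and 2.45, 2.69 and 0.867 CPM in parental cells with copper. Its IntS6 libraries did not overlap the others, which overlapped each other. By ratio Tig was 4.68 times its parental copper level and 4.18 times its level in the IntS12 line with copper. Without copper Tig stood at 0.984, 0.641 and 0.604 CPM in the IntS6 line, 0.470, 0.525 and 0.351 CPM in the IntS12 line and 1.05, 0.80 and 0.353 CPM in parental cells, where it overlapped its copper libraries.

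The endocytic receptor megalin, mgl, is the longest of the 72 genes, spanning 141634 bases of chromosome X (9358496 to 9500129, minus strand). It had 20.5, 15.8 and 16.8 CPM in the IntS6 line with copper, 5.06, 4.69 and 5.74 CPM in the IntS12 line with copper and 3.10, 3.79 and 3.61 CPM in parental cells with copper. The 3 kinds of cell did not overlap one another, and mgl was the gene just inside the copper limit, with a log2 ratio of 0.805. The metalloproteinase Mmp1, which degrades matrix and is a known target of JNK signalling in flies, had 126, 115 and 115 CPM in the IntS6 line with copper, 76.4, 70.4 and 88.1 CPM in the IntS12 line with copper and 66.4, 88.6 and 51.5 CPM in parental cells with copper. Mmp1 lay above every other library in the IntS6 line and was the closest to the IntS6-over-IntS12 limit (log2 ratio 0.602). The fasciclin-domain adhesion gene mfas had 215, 150.1 and 142 CPM in the IntS6 line with copper, 124, 89.6 and 102 CPM in the IntS12 line with copper and 113, 94.8 and 72.4 CPM in parental cells with copper, with library A highest throughout.

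Cytoskeletal and scaffold genes made up 8 of the 72: the Z-disc and adhesion-site genes Zasp52, zormin and CAP, the A-type lamin LamC, Septin4, mlt, the Shank scaffold Prosap and the myosin phosphatase subunit MYPT-75D. All 8 had IntS6 copper libraries above all parental copper libraries, as had 64 of the 72 and 16.3% of all genes tested. The choice used this ratio, so nothing is read from that count. Their ratios to parental cells ran from 1.58 (MYPT-75D) to 3.15 (CAP). Muscle markers summed to at most 1.59 CPM in any library, with wupA at 0 in all of them. LamC had 26.9, 25.6 and 25.3 CPM in the IntS6 line with copper, 14.3, 14.4 and 14.6 CPM in the IntS12 line with copper and 11.9, 13.7 and 12.9 CPM in parental cells with copper, with no overlap between the 3 kinds of cell. LamC also stood apart without copper, at 14.7, 13.3 and 14.0 CPM in the IntS6 line, 11.7, 10.1 and 9.00 CPM in the IntS12 line and 7.90, 6.90 and 5.36 CPM in parental cells. Septin4, whose untreated levels were 0.0616 to 0.352 CPM over all 9 libraries, had 3.37, 4.10 and 4.50 CPM in the IntS6 line with copper, 1.90, 2.52 and 2.87 CPM in the IntS12 line with copper and 1.80, 2.61 and 2.17 CPM in parental cells with copper. Its IntS6 copper libraries stood above the others, which overlapped each other.

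**Figure D3:**
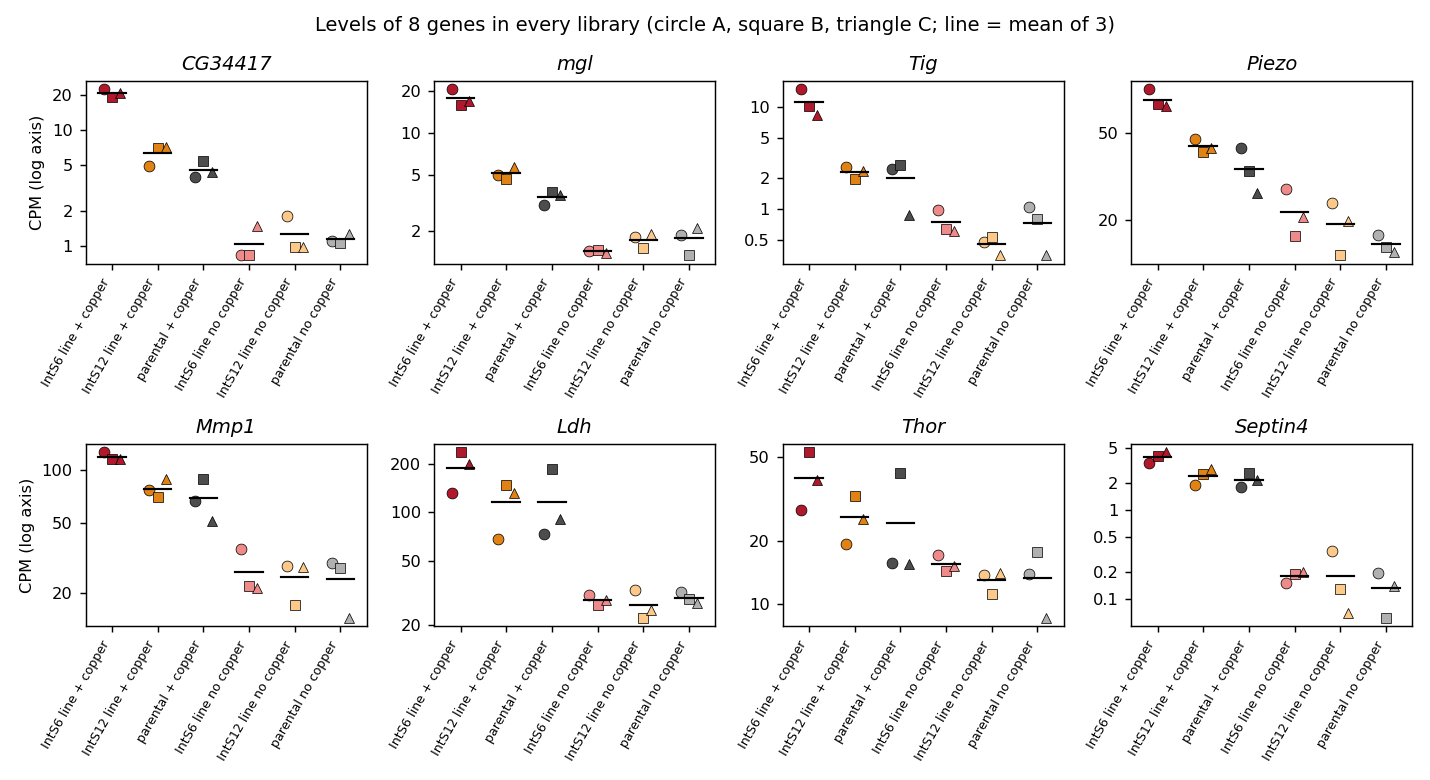
Level in CPM (log axis) of CG34417, mgl, Tig, Piezo, Mmp1, Ldh, Thor and Septin4 in every library, with circles, squares and triangles for libraries A, B and C and a line at the mean of 3. CG34417, mgl and Tig separate the IntS6 line with copper from every other group (for mgl 15.8 to 20.5 CPM against at most 5.74 CPM), whereas Ldh and Thor overlap between groups with copper.

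Receptors, kinases and second-messenger genes numbered 7 (Pka-C3, the adenylyl cyclase gene Ac13E, sff, Ptp52F, the Wnt receptor genes fz2 and fz3, and the lipid phosphate phosphatase gene wun2). Channels and transporters numbered 5 (Piezo, MFS3, the sodium-driven anion exchanger gene Ndae1, the aquaporin gene Prip, and ine). Piezo, a mechanically gated cation channel (chromosome 2L, 8163073 to 8190137, plus strand), had 79.0, 67.5 and 66.2 CPM in the IntS6 line with copper, 47.0, 41.0 and 42.5 CPM in the IntS12 line with copper and 42.7, 33.5 and 26.5 CPM in parental cells with copper. The IntS6 libraries stood apart, and the IntS12 line and parental cells overlapped. The kinase gene sff had the next largest copper ratio in parental cells, 6.95, after CG10738 at 7.72. It had 10.8, 10.0 and 9.61 CPM in the IntS6 line with copper, 5.00, 3.33 and 8.81 CPM in the IntS12 line with copper and 4.18, 6.15 and 4.55 CPM in parental cells with copper, and no more than 0.562 CPM in any untreated library. The IntS6 copper libraries of sff were above the rest, and the other copper groups overlapped. Its neighbour Pka-C3, a catalytic subunit of protein kinase A that lies 944 bases away on the same strand, was 2.11 times its parental copper level. The receptor tyrosine phosphatase Ptp52F had 12.1, 10.2 and 10.2 CPM in the IntS6 line with copper, 6.71, 6.33 and 6.34 CPM in the IntS12 line with copper and 6.63, 5.16 and 5.63 CPM in parental cells with copper, again with only the IntS6 line apart. Without copper both lines already lay above parental cells for Ptp52F. It then had 1.66, 1.47 and 1.41 CPM in the IntS6 line and 1.05, 0.677 and 0.776 CPM in parental cells. MFS3, of the major facilitator superfamily, overlapped between groups, with 4.90, 13.3 and 9.17 CPM in the IntS6 line with copper against 2.20, 5.60 and 2.46 CPM in parental cells with copper.

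Of the 5 detoxification genes, the cytochromes P450 Cyp6a20, Cyp6a9, Cyp6d5 and Cyp12d1-p and the glucuronosyltransferase Ugt36D1, Cyp6a20 was the most abundant. It had 24.2, 28.7 and 28.4 CPM in the IntS6 line with copper, 14.2, 20.2 and 17.2 CPM in the IntS12 line with copper and 11.5, 19.4 and 11.6 CPM in parental cells with copper, and its IntS6 libraries were above the rest. The ratios of the 5 to parental cells with copper ran from 1.85 (Cyp12d1-p) to 2.78 (Ugt36D1). Cyp6a20 and Cyp6a9 lie 746 bases apart, and 20.2% of the exon bases of Cyp6a9 face Cyp6a19 on the other strand.

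Another 11 genes have names of their own (vir-1, Obp44a, Rab32, Sans, T48, y, ltl, ome, tinc, CBP and l(1)G0469) and 25 carry only a CG number. Obp44a, an odorant-binding protein gene, reached 3.29 times its parental copper level, and the virus-induced gene vir-1 reached 2.01 times. Of the exon bases of Obp44a 19.1% face Pabp2 on the other strand, and the strand setting of the counting is not given. Exons of CG5835 (26.6%), CG12880 (16.1%) and CG10337 (13.3%) also face genes on the other strand. CG34417 (chromosome X, 6540771 to 6589173, plus strand) had 22.2, 19.2 and 20.7 CPM in the IntS6 line with copper, 4.87, 7.01 and 7.08 CPM in the IntS12 line with copper and 3.89, 5.38 and 4.33 CPM in parental cells with copper. Its IntS6 copper libraries were set far apart from the rest, and the other copper groups overlapped. CG10738 had 12.6, 10.4 and 10.8 CPM in the IntS6 line with copper, 6.46, 6.57 and 7.95 CPM in the IntS12 line with copper and 6.05, 5.76 and 9.03 CPM in parental cells with copper. CG5080 had 34.4, 24.3 and 22.1 CPM in the IntS6 line with copper, 17.7, 16.9 and 15.0 CPM in the IntS12 line with copper and 19.2, 13.9 and 13.8 CPM in parental cells with copper. CG9008 had 15.7, 11.9 and 18.9 CPM in the IntS6 line with copper, 8.35, 9.32 and 9.82 CPM in the IntS12 line with copper and 6.12, 6.00 and 7.87 CPM in parental cells with copper. For CG10738, CG5080 and CG9008 the IntS6 line lay above the other kinds of cell without overlap. The values of CG4456 cannot be told from those of Hsp22, which shares 90.1% of its exon bases on the same strand, nor those of CG44286 from CG8788, which shares 77.1%.

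With copper, the libraries of the IntS6 line were all above those of parental cells for 64 of the 72 genes and above those of the IntS12 line for 66. Among all genes tested 16.3% and 14.0% were so placed, and 4.98% and 7.43% the other way; as the rule chose on these ratios, nothing is read from the counts. Ldh, Thor, MFS3, CG4456, CBP, CG17760, CG18754 and ltl overlapped with parental cells. Within each letter the IntS6 library exceeded the parental one for 72, 72 and 72 genes in A, B and C, with median log2 ratios of 1.15, 0.87 and 1.18. It exceeded the IntS12 one for 72, 72 and 71, the exception being ine in C. In all 3 copper groups library B was the highest for 13 genes, among them Ldh, Thor, MFS3, CG6830 and CG13117. Library A was the highest in all 3 for 9, among them mfas, PCB, Piezo and Pka-C3, and library C for 2. Library A was also the lowest in all 3 for 9. The share over all genes was not counted, so nothing is read from these counts.

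Between the IntS12 line and parental cells, both with copper, the median edgeR log2 fold change was 0.15 over the 72, with 50 above and 22 below 0. Over all genes tested it was 0.01, with 52.2% above 0. All IntS12 copper libraries were above all parental ones for 10 of the 72 (LamC, zormin, mgl, CG9008, CG6847, CG10508, CG43795, Ndae1, Agpat2 and T48) and below for CG10232, where 5.71% and 1.77% of all genes tested were so placed. By letter the medians were 0.08, -0.01 and 0.54, with the largest in C, where the parental sum was lowest. In mean CPM with copper, the choice of genes put the IntS6 line first for all 72. The IntS12 line came next for 56 genes and parental cells for 16. These counts use mean CPM, not the edgeR fold change, and the share over all genes was not counted.

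The untreated IntS6 and IntS12 lines took no part in the choice of genes, and between them none of the 72 was called. By the edgeR quasi-likelihood test with Benjamini-Hochberg adjustment over 8174 genes, 0 members were higher and 0 lower in the untreated IntS6 line than in the untreated IntS12 line, where 0.0489% and 0.0122% of all genes were called. At an unadjusted p under 0.05 there were 8 members, 11.1% of the 72, against 239 genes or 2.92% of all, and DESeq2 likewise called 0, with 5 at an unadjusted p under 0.05. The median log2 fold change was 0.02, with 37 above and 35 below 0, but it was 0.22 without library A of the IntS12 line and -0.12 without its library B. The smallest adjusted p was that of LamC, 0.329, with a log2 fold change of 0.45 ± 0.11 (SE, n = 3 each) and all 3 IntS6 libraries higher. Libraries were all higher in the IntS6 line for 8 members (Thor, LamC, CG9008, Tig, CG10337, Cyp6a9, CG18754 and Cyp6d5), where 3.33% of all genes were so placed, and all lower for 6 (mgl, CG13917, Ptp52F, Rab32, ome and CG9801), where 5.17% were. Standard errors ran from 0.11 for LamC to 1.65 for ltl, with a median of 0.40, and 17 of the genes had under 30 counts over the 6 untreated libraries. Of the 72, 42 reached the filter level of 0.669 CPM in at least 3 untreated libraries of these lines; the other 30 were tested because other groups, where they stood higher, carried them past the filter. The 5 genes called between the untreated lines, none of them among the 72, were the transgenes IntS6 (2.28-fold, adjusted p = 1.33e-09) and IntS12 (log2 -0.99 ± 0.14, adjusted p = 0.0011) and, all higher in the IntS6 line, Cyp304a1 (log2 3.67 ± 0.44, adjusted p = 0.000126), Cad88C (log2 4.18 ± 0.69, adjusted p = 0.00889) and CG1674 (log2 0.60 ± 0.10, adjusted p = 0.0114).

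Against untreated parental cells, which the choice used, the untreated lines carry no test. The untreated IntS6 line was above untreated parental cells in all libraries for 12 of the 72 and below for 0, where 6.03% and 3.08% of all genes were so placed, with a median log2 fold change of 0.22. These 12 were LamC, CG9008, Ptp52F, CAP, CG6847, MFS3, tinc, CG43795, Ugt36D1, CG18754, Mal-A5 and Cyp6d5. For CG9008 the edgeR fold of IntS6 over parental cells was 2.27 without copper and 2.28 with it. It was 2.04 and 1.95 for LamC, 1.78 and 1.81 for Ptp52F, and 3.08 and 3.52 for CAP. For CG6847 it was 1.83 and 4.64, and the median over the 72 was 1.17 and 2.13. The untreated IntS12 line was above for 12 and below for 1, CG10337, where 6.58% and 2.03% of all genes were so placed, with a median of 0.24. Library A was the highest of its group for 46 of the 72 genes in the untreated IntS6 line, 39 in the untreated IntS12 line and 43 in untreated parental cells. No share over all genes was counted beside these numbers, and nothing is read from them.

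The copper response of the IntS12 line sets the untreated IntS12 libraries, which the choice did not use, against its copper libraries. The edgeR test called 71 of them, 98.6%, higher with copper, where 19.2% of all genes tested were called higher and 17.6% lower. The copper-treated IntS12 libraries entered the choice, as an upper bound, and the genes had been chosen as raised by copper in parental cells, so nothing is read from this count about the set; the p-values below belong to single genes. All 72 had positive log2 fold changes, with a median of 1.75 (3.37-fold) beside 0.01 over all genes, and for 69 every copper library was above every untreated one, where 24.5% of all genes were so placed. Pka-C3, fz2 and y overlapped. The Wnt receptor gene fz2 was the member not called, with 0.949, 0.748 and 1.14 CPM in the IntS12 line with copper, 0.822, 0.328 and 0.492 CPM without, and a log2 fold change of 0.76 ± 0.38 (SE, n = 3 each, adjusted p = 0.122).

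The smallest called rise was that of LamC, 1.40-fold (log2 0.48 ± 0.11, adjusted p = 0.00122). Ldh rose 4.34-fold (log2 2.12 ± 0.30, adjusted p = 9.85e-06), Mmp1 3.19-fold (log2 1.67 ± 0.21, adjusted p = 2.42e-06) and Piezo 2.27-fold (log2 1.18 ± 0.15, adjusted p = 2.54e-06). The genes with the largest IntS6-linked ratios rose here too: CG34417 4.89-fold (log2 2.29 ± 0.23, adjusted p = 8.73e-08), mgl 2.96-fold (log2 1.56 ± 0.18, adjusted p = 4.41e-07) and Tig 5.03-fold (log2 2.33 ± 0.41, adjusted p = 0.000116). Some genes under 1 CPM in every untreated IntS12 library rose more: sff 15.3-fold (log2 3.94 ± 0.41, adjusted p = 1.72e-07), Septin4 12.1-fold (log2 3.60 ± 0.39, adjusted p = 2.65e-07) and CG10738 11.1-fold (log2 3.47 ± 0.36, adjusted p = 1.57e-07). Libraries with copper, where they stood higher, carried sff, Septin4 and CG10738 past the count filter, which favours a large fold change. The larval gene ltl had 39 counts with copper against 1 without, a ratio of 39.9 with an exact 95% interval of 6.75 to 1615, and the maltase gene Mal-A5 37 against 3, a ratio of 12.6 (3.99 to 63.9). These intervals pool the libraries of a group and cover counting error only. Libraries with copper carried ltl and Mal-A5 past the count filter too, which favours a large ratio. For Thor the rise was 1.97-fold (log2 0.98 ± 0.32, adjusted p = 0.0187), and leaving out library B of the IntS12 line without or with copper put the edgeR adjusted p at 0.0686 and 0.101, in a range of 1.01e-18 to 0.101 over 12 alternatives.

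**Figure D4:**
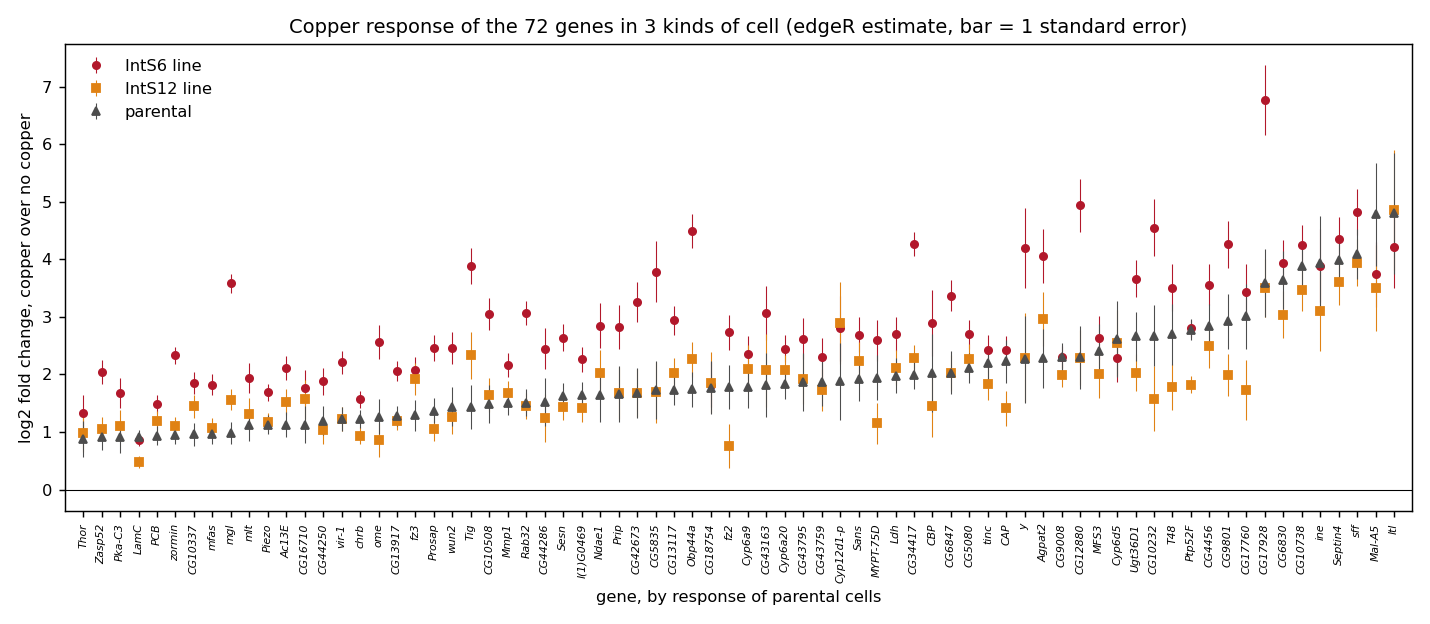
Copper response as log2 fold change (edgeR estimate, bars 1 standard error) of the 72 genes, ordered by parental cells, in the IntS6 line, the IntS12 line and parental cells. Medians over the genes were 2.69, 1.75 and 1.78, and most of the IntS6 points lie above those of the other kinds of cell.

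Within each kind of cell, the median copper response of the 72 was 6.47-fold in the IntS6 line, 3.37-fold in the IntS12 line and 3.43-fold in parental cells, with no test for the IntS6 line and parental cells, whose libraries the choice used. Copper libraries were all above untreated ones for 72 genes in the IntS6 line and 66 in parental cells, where 27.5% and 22.7% of all genes were so placed and 20.8% and 20.4% the other way. The response was largest in the IntS6 line, followed by parental cells for 34 genes and by the IntS12 line for 31. It was largest in parental cells for LamC, ine, Mal-A5 and Cyp6d5, and in the IntS12 line for CG18754, Cyp12d1-p and ltl. CG34417 responded 19.1-fold in the IntS6 line, 4.89-fold in the IntS12 line and 3.98-fold in parental cells, and mgl 12.0-fold, 2.96-fold and 1.97-fold in that order. Ldh responded 6.50-fold, 4.34-fold and 3.94-fold in that order, and Piezo 3.22-fold, 2.27-fold and 2.19-fold.

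Other genes tied to copper and stress changed with copper in the IntS12 line. Of 12 tested metal-handling genes 9 rose with copper and 0 fell, where 19.2% of all genes tested rose and 17.6% fell. Those that rose included the copper importer Ctr1B (9.98-fold, edgeR adjusted p = 0.00155) and the copper exporter ATP7 (1.63-fold, adjusted p = 7.45e-06). Of 15 tested JNK and AP-1 pathway genes 8 rose (egr, wgn, Jra, puc, Mmp1, Mmp2, upd3 and scaf) and cher fell, beside the same shares of all genes. The TNF ligand egr rose 9.07-fold (adjusted p = 6.06e-06), the cytokine upd3 3.07-fold (adjusted p = 8.69e-05) and the JNK phosphatase puc, a feedback target of the pathway, 1.29-fold (adjusted p = 0.00199). Mmp1 is the one gene of these lists among the 72. Metallothionein genes and Mmp2 had been set aside by name, so they could not be members whatever their values. Between the untreated lines 0 genes of either list were called higher and 0 lower by edgeR, and the same held for the other Integrator genes beyond IntS6 and IntS12, whose list had 13 tested members. With copper in the IntS12 line IntS12 (11.1-fold, adjusted p = 2.38e-16) and IntS6 (1.29-fold, adjusted p = 0.000491) rose, and IntS3 (0.851-fold, adjusted p = 0.0304) and IntS4 (0.707-fold, adjusted p = 0.000181) fell.

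The 72 genes had longer annotated spans than most. All are protein-coding, and their median annotated span was 8.29 kb, against 3.01 kb for 376 copper-raised protein-coding genes that missed an IntS6 limit and 2.79 kb for 7559 tested protein-coding genes. Total intron length had medians of 4.65 kb, 0.635 kb and 0.403 kb in that order. Spans over 20 kb were found for 23 members (31.9%), 29 of the copper-raised genes that missed an IntS6 limit (7.71%) and 648 of all tested (8.57%). Among 211 other genes past both IntS6 limits without the copper limit, the median was 11.9 kb and 36.0% exceeded 20 kb. Members were also low in untreated parental cells, at a median of 0.748 CPM, against 2.61 CPM for the copper-raised genes that missed an IntS6 limit and 11.0 CPM for all tested.

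Among all copper-raised protein-coding genes, those with names set aside included, the share that were members rose with span: 8 of 147 up to 2 kb (5.44%), 19 of 127 from 2 to 5 kb (15.0%), 22 of 130 from 5 to 20 kb (16.9%) and 23 of 53 above 20 kb (43.4%). The median log2 fold change of the IntS6 line over parental cells with copper was 0.05, 0.12, 0.32 and 0.72 across these classes, and that of the IntS12 line over parental cells -0.01, 0.00, 0.01 and 0.14. The copper response of parental cells had medians of 1.48, 1.55, 1.53 and 1.61 across the same classes. Split by level, copper-raised genes under 1 CPM in untreated parental cells gave IntS6 medians of 0.14, 0.49, 0.59 and 0.81, and those at 1 CPM or more 0.05, 0.07, 0.24 and 0.58. The same medians over all tested protein-coding genes, copper-raised or not, were -0.07, -0.02, 0.06 and 0.19. Those under 1 CPM in untreated parental cells gave 0.09, 0.49, 0.85 and 1.36. In both sets, genes this low could pass the count filter through the IntS6 line with copper, which favours high medians. All tested genes at 1 CPM or more gave -0.08, -0.03, 0.04 and 0.16, so a rise with span was not limited to copper-raised genes. These are descriptions over genes, which share libraries, and the choice of members used the same ratios.

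**Figure D5:**
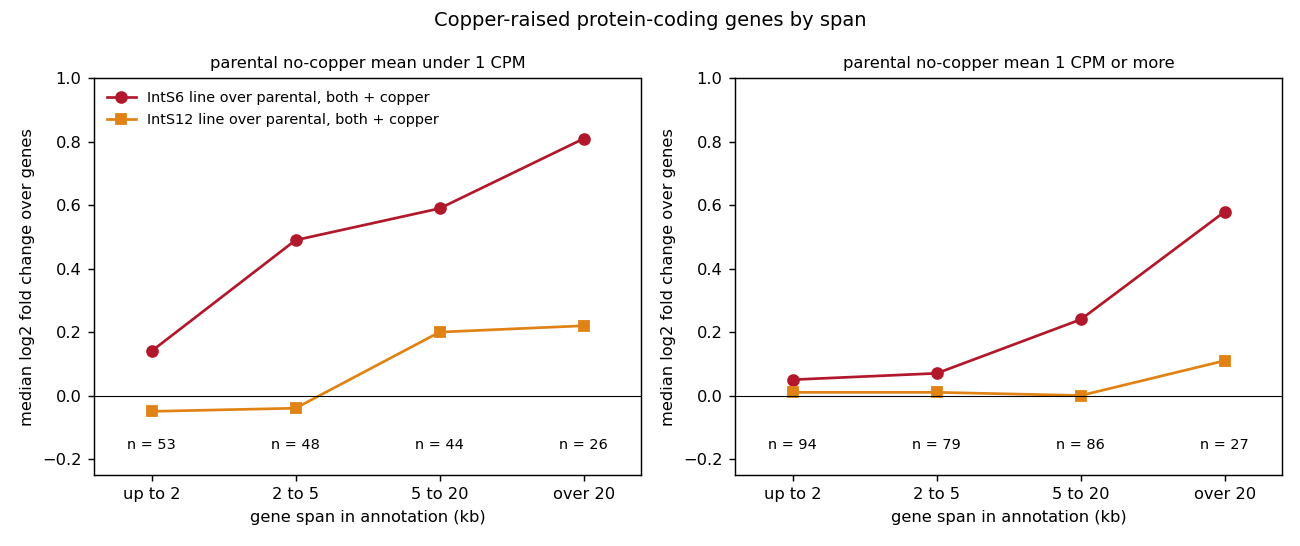
Median log2 fold change over copper-raised protein-coding genes by annotated span class (kb), for the IntS6 line over parental cells and the IntS12 line over parental cells, all with copper; the left panel holds genes under 1 CPM in untreated parental cells and the right panel the rest, with the number of genes under each point. The IntS6 medians reach 0.81 and 0.58 above 20 kb, and the IntS12 medians 0.22 and 0.11.

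The 72 lie on chromosomes X (10), 2L (14), 2R (22), 3L (15) and 3R (11). Chromosome arm 2R held 30.6% of them and 19.8% of all tested genes. Besides Pka-C3 with sff and Cyp6a20 with Cyp6a9, the pairs within 20 kb of each other were CG18754 with CG16710 (77 bases), CG44250 with Sans (9.99 kb) and CG5080 with MFS3 (12.9 kb).

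Genes lay close on both sides of each limit. On the copper ratio the members just inside were mgl, CG44286 and CG43163 (log2 0.805, 0.806 and 0.819), and CG5001, IRSp53 and GEFmeso lay just outside (0.793, 0.791 and 0.782). On the ratio of IntS6 to parental cells, chrb, CG16710 and CG18754 lay inside (0.624, 0.627 and 0.633) and IP3K1, CG5758 and et outside (all at 0.588). On the ratio of IntS6 to IntS12, Mmp1, Ndae1 and chrb lay inside (0.602, 0.614 and 0.616) and tei, SLC5A11 and hebe outside (0.591, 0.585 and 0.572). With 0.1 CPM added in place of 0.5, 184 genes would have entered, the 72 among them, and with 1 CPM added 41, all of them from the 72. Leaving out 1 library at a time gave 58 genes (without parental copper library B, 51 of them from the 72) to 84 (without untreated parental library A, 71 of them from the 72).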

How the data were processed

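The authors deposited 1 table of estimated counts per gene for 18 libraries of DL1 cells; 13.4% of the values were not whole. The tools named per the submitters' processing notes are Trimmomatic 0.39 and featureCounts, with dm6 and BDGP6 as builds. The libraries are strand-specific per the labels' protocols, but the aligner and the strand setting of the counting are not given in the labels or file. Genes were named from a table of FlyBase identifiers (17626 of 17753 matched); coordinates and lengths are from the BDGP6.54 annotation. CPM values are counts over column totals, rRNA genes included. Rounded counts of all 18 libraries entered 1 fit of 6 group means in edgeR 4.0.16 (R 4.3.3, limma 3.58.1) with TMM factors and the default count filter, which kept 8174 of 13350 genes with any count and all 72 members. Calls are at a Benjamini-Hochberg adjusted p under 0.05 in 2 comparisons, and each ± on a log2 fold change is its standard error. In simulated counts the fit recovered 77% and 96% of 100 genes changed by log2 0.6 and 1.2 between untreated lines, and 80% and 98% in the IntS12 copper comparison. Of the unchanged genes, 5 and 10 were called in these comparisons. The changed genes averaged above 1 CPM over all 18 libraries and were simulated at that level. Every gene was given the spread fitted as a trend on level, not its own. These shares therefore do not carry over to members at lower levels without copper, or to members more variable than the trend. Members, pathway lists and markers were chosen with earlier results of these data known. Values were printed by rule for the members with the smallest p, the highest levels, the largest ratios and those at the limits; other genes were picked with values in view. Letters were not used as pairs, since in the 2 comparisons deviations of same-letter samples correlated at 0.0234 to 0.142 over all genes tested and not above 0.1 for every pair. The groups with copper were not checked against each other in this way, nor were the 72 checked on their own. Letter effects shared by the 72 were not tested. DESeq2 1.42.0 and other settings were alternatives. Promoter motifs were not analysed here.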

Additional observations from a re-analysis of the deposited data

Results flagged for a closer look

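For 6 of the 72 genes every untreated IntS6 library lay below every untreated IntS12 library, while with copper every IntS6 library lay above every IntS12 library. The log2 ratio of untreated IntS6 over untreated IntS12 means, with 0.5 CPM added, was -0.47 for CG9801, -0.49 for ome, -0.36 for Rab32, -0.21 for mgl, -0.20 for Ptp52F and -0.08 for CG13917. The direction with copper was fixed by the choice of genes, none of the 6 was called between the untreated lines, and the difference between the contrasts was not tested. Among all genes tested 5.17% had all untreated IntS6 libraries lower.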

How the results depend on the processing

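Between the untreated lines 4 genes were called higher and 1 lower, and 0 members in either direction under the alternatives run, of which the fit of the 2 groups alone tested 42 of the 72. DESeq2 called 7 higher and 3 lower, no filter on low counts gave 13 and 8, a fit of the 2 groups alone called 3 lower and the replicate block 2. The members' median log2 of 0.02 was 0.07 in the fit of the 2 groups alone (over those 42, for which the fit of all groups gave 0.06) and -0.12 to 0.22 with 1 library left out, where 2 to 4 genes were called higher (2 without library A or B of the untreated IntS12 line or B of the untreated IntS6 line). In the IntS12 copper response 63 to 71 members were called over all alternatives (71 with the replicate block), with 63 from the fit of the 2 groups alone, whose filter left 64 members, and 65 to 68 with 1 library left out; 10 members lost the call in at least 1 alternative (CG5835, CG10232, CG43163, ome, MYPT-75D, CG44286, CG17760, y, CBP and Thor) and 61 in none. Over both comparisons 1660 gene-level results kept their side of the threshold, 30 fell short of it and 0 reversed. The rule found 184 genes with 0.1 CPM added, 41 with 1 CPM, 67 with TMM-scaled sizes (67 of the 72), 145 with rRNA genes left out of totals and the added 0.5 CPM unchanged (68 of the 72), which also makes that addition smaller beside the levels, and 58 to 84 with 1 library left out; the cause was not tested. In the untreated comparison 17 members had under 30 counts.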
